A study of Mus musculus with 8 samples.

Results

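Committed neutrophil progenitors were selected on measured values, as the kept cells with at least 5 Elane UMIs and at least 5 UMIs of S100a8 and S100a9 together per 10000 UMIs of the cell. This gate held 173 of the 10046 kept cells, out of 13310 deposited cell barcodes in 4 droplet libraries. Elane encodes neutrophil elastase and lies at chr10:79886247-79888215 (GRCm38), and S100a8 and S100a9 encode the subunits of calprotectin. Control mice contributed 105 of the gated cells. The libraries made 3 h, 24 h and 72 h after interferon alpha (IFNα) contributed 12, 31 and 25. The series measured bone marrow LK cells, that is lineage-negative Kit-positive cells, to which sorted hematopoietic stem cells (HSCs) had been added, from wildtype mice of 12 to 14 weeks. Treated mice had received 50000 IU of recombinant IFNα per 20 g of body weight under the skin, and 100 μl of PBS had been given to the controls. Each time point was 1 library of 4 mice, told apart by hashtag antibodies, so time point and library cannot be separated from each other and every p-value measures only the spread between mice. The antibodies used to remove lineage-positive cells included those against Gr-1, Ly6G and CD11b, so neutrophils carrying these surface proteins were not collected.

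Neutrophils fill their granules in order. Proteases and myeloperoxidase of the primary granules are made first, in promyelocytes, followed by secondary granule proteins such as lactoferrin and then by gelatinase. Type I interferon binds the IFNAR receptor, and the Jak kinases then activate transcription factors that join Irf9 and bind a sequence element in front of interferon-stimulated genes (ISGs). S100a8 and S100a9 mark cells that have moved from the shared granulocyte and monocyte progenitor toward the neutrophil fate.

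The gated cells were deeply sequenced. Control cells held a median of 36148 UMIs, and those collected 3, 24 and 72 h after IFNα held 27978, 38827 and 35617, and the median share of mitochondrial UMIs lay between 1.55% and 1.79%. Median Elane was 254.7 UMIs per 10000 in control and 199.2, 211.8 and 211.3 at 3, 24 and 72 h. The median of S100a8 plus S100a9 was 20.2 per 10000 in control and 12.2, 13.4 and 18.8 after treatment. These genes chose the cells, so their levels are a description. Just inside the S100a8 and S100a9 threshold lay cells at 5.14, 5.30 and 5.45 per 10000, and just outside it cells at 4.89, 4.97 and 4.99. The Elane threshold cut through almost no cells, since 171 gated cells had at least 118.7 per 10000. The remaining 2 control cells had 5.48 and 5.65 per 10000, and one of them held only 1824 UMIs. The other 5 kept cells that passed the S100a8 and S100a9 threshold had between 0 and 1.25 Elane UMIs per 10000 and were left out. Elane UMIs were also found in cells that should lack the gene. In control, 62.8% of the 610 Hlf-positive, Mpo-low cells, which are stem-like, had at least 1 Elane UMI at a median depth of 12320, and 7.54% had an S100a8 or S100a9 UMI, yet none lay in the gate. At 3, 24 and 72 h the shares with an Elane UMI were 22.8%, 44.0% and 33.4%, at median depths of 9190, 13940 and 11760. Those with an S100a8 or S100a9 UMI were 4.95%, 4.64% and 3.99%, and none of these cells lay in the gate.

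**Figure D1:**
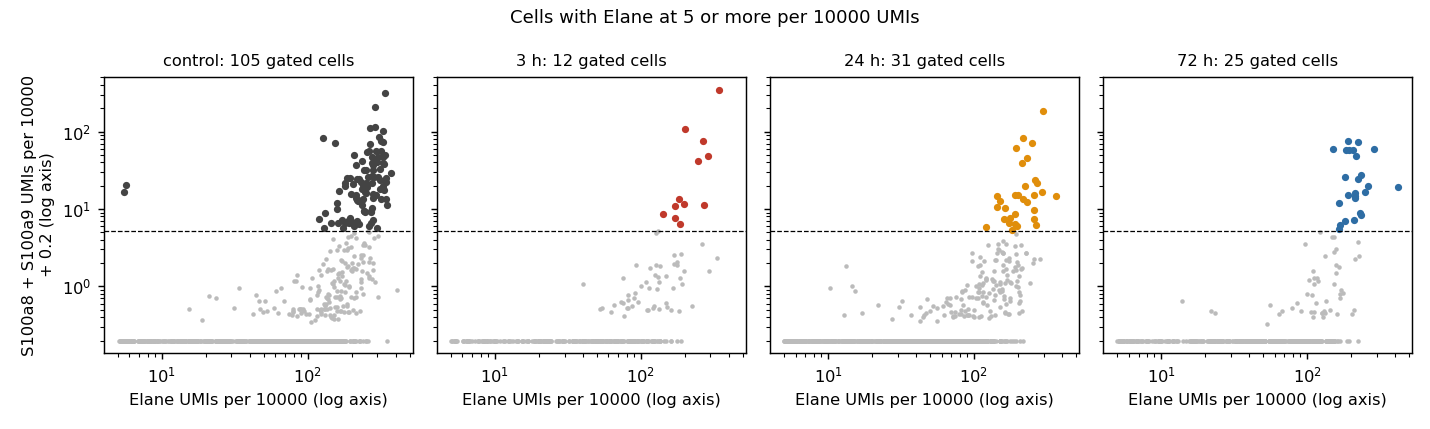
Every kept cell with Elane at 5 or more per 10000 UMIs, by Elane (horizontal, log axis) and by S100a8 plus S100a9 with 0.2 added (vertical, log axis), in the 4 libraries; coloured points are gated cells and the dashed line is the gate. All gated cells but 2 in control lie at the Elane-rich end, with 105 in control and 12, 31 and 25 after IFNα.

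UMIs of Pglyrp1 and Trem3, both on the secondary granule list used here, were found in nearly all gated cells. Those of Ltf, Mmp9, Retnlg, Camp, Ngp, Ly6g, Chil3 and Lcn2 were found in some or none. Pglyrp1, a peptidoglycan recognition protein of neutrophil granules, was found in 103 of 105 control gated cells and in all gated cells at the other times, and Trem3, a myeloid receptor, in the same numbers of cells. The lactoferrin gene Ltf had 0 UMIs in all 173 cells, as did the gelatinase gene Mmp9 and the late neutrophil gene Retnlg. In control, where the gated cells held 3723958 UMIs, such a count allows up to 0.806 UMIs per 1000000 UMIs (CPM; 3 counts over the library's gated cells, counting error only). Camp, which encodes the cathelicidin of secondary granules, had 33 UMIs in 12 of 105 control cells, Ngp had 15 UMIs and Ly6g a single UMI. Chil3 had 78 UMIs in 32 control cells and Lcn2, the lipocalin gene, 166 UMIs in 67. In the 231 control cells with at least 3 UMIs of the erythroid factor Klf1, which should lack these genes and had a median of 28510 UMIs, 6.49% had a Pglyrp1 UMI, 1.30% a Trem3 UMI and 1.30% an Lcn2 UMI, and none had one of Chil3, Camp or Ngp. The Pglyrp1 share was 22.95% in the 610 control cells with Hlf and low Mpo (median 12320 UMIs), against 98.1% of the gated cells, while Lcn2 was in 0 of the 610. Over the whole list of 18 secondary granule genes the level was 3678 CPM in control, mostly from Serpinb1a, Hp and Pglyrp1, beside 48827 CPM for 12 primary granule genes. The sort had removed cells with Ly6G, Gr-1 or CD11b on their surface.

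Markers of other cell types were low. In control the 8 monocyte markers summed to 128 CPM over all gated cells, led by F13a1, and gave 103, 136 and 87.1 CPM at 3, 24 and 72 h. The 6 markers of basophil, mast cell and eosinophil progenitors summed to 31.1 CPM in control, led by Mcpt8, and to 6.04, 12.3 and 18.4 CPM afterwards. In control all 41 Cpa3 UMIs came from a single cell, and Epx was at 0 in every library. The 5 erythroid markers summed to 6.71 CPM, the 4 megakaryocyte markers to 5.91, the 4 stem cell markers to 8.59 and the 5 lymphoid markers to 0.269 CPM in control. At 3, 24 and 72 h these were 6.04, 7.01 and 3.68 CPM for erythroid, 3.02, 7.01 and 0 for megakaryocyte, 3.02, 15.8 and 12.3 for stem cell and 0, 0 and 2.45 for lymphoid markers. Mature neutrophil markers gave 64.4, 54.3, 61.3 and 35.6 CPM in control and at 3, 24 and 72 h, mostly from Csf3r, the receptor for the growth factor G-CSF. No barcode of a gated cell occurred in another library, and 10 of 452 hashtag multiplets, which had been removed, would have met the gate.

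Within the control gate, several granule and lineage genes stood higher where S100a8 and S100a9 did. The 105 cells fell into steps of 25 cells at 5 to 10, 27 at 10 to 20, 38 at 20 to 50 and 15 cells at 50 or more per 10000. Wfdc21, which encodes a small secreted protein of myeloid cells, stood at 118 CPM (95% Poisson interval 96.2 to 144) in the lowest step and at 211, 356 and 480 CPM (423 to 542) in the steps above. Fcnb, the ficolin B gene, went from 32.6 to 191 CPM across the same steps, Trem3 from 247 to 408 CPM and Cebpe, a transcription factor needed for secondary granules, from 247 to 388 CPM. Camp had 1, 4, 9 and 19 UMIs in the steps and its level went from 1.21 (0.0306 to 6.74) to 35.6 CPM (21.4 to 55.6). Cd34, a surface protein of early progenitors, went the other way, from 32.6 to 9.37 CPM. Other genes of both kinds showed no such order, with Lcn2 between 42.3 and 46.8 CPM, Ngp between 0.743 and 7.49 CPM, the receptor gene Kit at 55.6 and 61.8 CPM and Myc at 155 and 150 CPM in the lowest and highest steps. Mpo, the myeloperoxidase gene, stayed between 10529 and 10835 CPM. Median depth was 31702, 38779, 36294 and 37594 UMIs in the 4 steps. The intervals cover counting error over cells of 1 library and give no test.

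The nearest other cells were the 2042 early Elane-high cells, which met the Elane threshold and fell below that of S100a8 and S100a9. Control levels are given as means over the 4 mice. Wfdc21 stood at 253 CPM ± 71.3 (SD, n = 4) in gated cells against 14.5 ± 7.73 in early cells, and Fcnb at 58.5 ± 41.3 against 4.14 ± 1.24. Vcam1, an adhesion molecule, and Clec4a2, a lectin receptor, were at 68.1 and 154 CPM in gated cells and 5.46 and 18.7 in early cells. Genes of the monocyte branch were at the opposite end. Irf8, a transcription factor that directs monocyte fate, was at 7.11 CPM ± 7.30 in gated cells and 212 ± 21.4 in early cells, Ms4a6c at 31.7 against 317 and Ly86 at 3.101 against 139. The early cells spanned all Elane values above 5, and how far this gap follows the Elane level was not tested. Early cells with Elane at 100 or more per 10000 numbered 619, of which 272 were in control. Their control means of Wfdc21, Irf8 and Ms4a6c were 34.4, 173 and 203 CPM. Their control mean of S100a8 was 62.4 CPM, against 26.05 in all early cells. Wfdc21 was higher in the gated cells of 15 of 15 mice and Irf8 and Ms4a6c were lower in all 15, also against those Elane-rich cells. Because S100a8 and S100a9 divided the cells, these levels are a description and carry no test.

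The share of cells in the gate was lower in every treated mouse than in every control mouse. In control the gate held 38 of 827, 36 of 764, 28 of 825 and 3 of 58 kept cells of the 4 mice, that is 4.59%, 4.71%, 3.39% and 5.17%. At 3 h it held 1.21%, 0.820%, 0.653% and 0.284% of the kept cells, from 4, 3, 4 and 1 cells. At 24 h the shares were 0.816%, 0.726%, 0.577% and 1.42%, from 5, 9, 4 and 13 cells, and at 72 h they were 1.03%, 0.818%, 1.14% and 1.05%, from 8, 4, 7 and 6 cells. The control mean of 4.47% ± 0.758 (SD, n = 4) was thus 6.02 times that at 3 h, 5.05 times that at 24 h and 4.42 times that at 72 h, where it was 0.742% ± 0.385, 0.884% ± 0.370 and 1.01% ± 0.137. Among Elane-high cells, a denominator meant to leave out the added HSCs, the gate held 14.3% ± 2.71 in control and 4.18% ± 2.02, 4.23% ± 1.46 and 5.93% ± 0.795 at 3, 24 and 72 h. Over the pooled library the control share of Elane-high cells was 13.3% (exact Clopper-Pearson 95% interval 10.97% to 15.8%, counting error only) and the largest treated share was 5.92% (3.87% to 8.62%) at 72 h. Among cells with Elane at 100 or more per 10000, a denominator chosen after seeing the data, the gate held 22.6% to 50.0% in the control mice, 5.88% to 23.1% at 3 h, 9.09% to 18.8% at 24 h and 14.0% to 24.0% at 72 h. Control overlapped 3 h and 72 h there and stayed above 24 h, and the 50.0% came from 3 of 6 cells of control mouse 4. No p-value is attached to these shares, since Elane, S100a8 and S100a9 define them. A cell leaves the gate when S100a8 and S100a9 drop within it, so fewer cells and lower levels per cell cannot be told apart here.

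A measure without the gate genes gave the same direction. Kept cells were counted whose summed UMIs of 10 other granule or commitment genes (Ltf, Camp, Ngp, Lcn2, Chil3, Fcnb, Pglyrp1, Trem3, Cebpe and Hp) reached 5 per 10000. In control these were 23.6%, 22.6%, 21.7% and 15.5% of the kept cells of the 4 mice. They were 13.03%, 8.74%, 7.67% and 10.5% at 3 h, 13.4%, 8.87%, 11.7% and 13.9% at 24 h, and 8.13%, 6.95%, 9.31% and 8.03% at 72 h. No treated mouse reached the lowest control mouse at any time. The mean fell from 20.9% ± 3.64 to 9.99% ± 2.34 at 3 h, 12.0% ± 2.25 at 24 h and 8.11% ± 0.965 at 72 h (SD, n = 4; two-sided exact permutation test of mice, p = 0.0286 at each time, the smallest that 4 against 4 mice allow, and 0.0286 after adjustment over the 3 times). With any 1 mouse at 3 h or 24 h left out, or mouse 2 at 72 h, the exact p was 0.0571. This wider class took 104 of the 105 control gated cells and all gated cells of the other libraries, and also many early cells, with 556 cells in control. In control 40.2% of its UMIs of these genes came from Hp, the haptoglobin gene, 23.1% from Pglyrp1, 17.8% from Cebpe and 13.2% from Trem3. Its denominator holds the added HSCs.

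**Figure D2:**
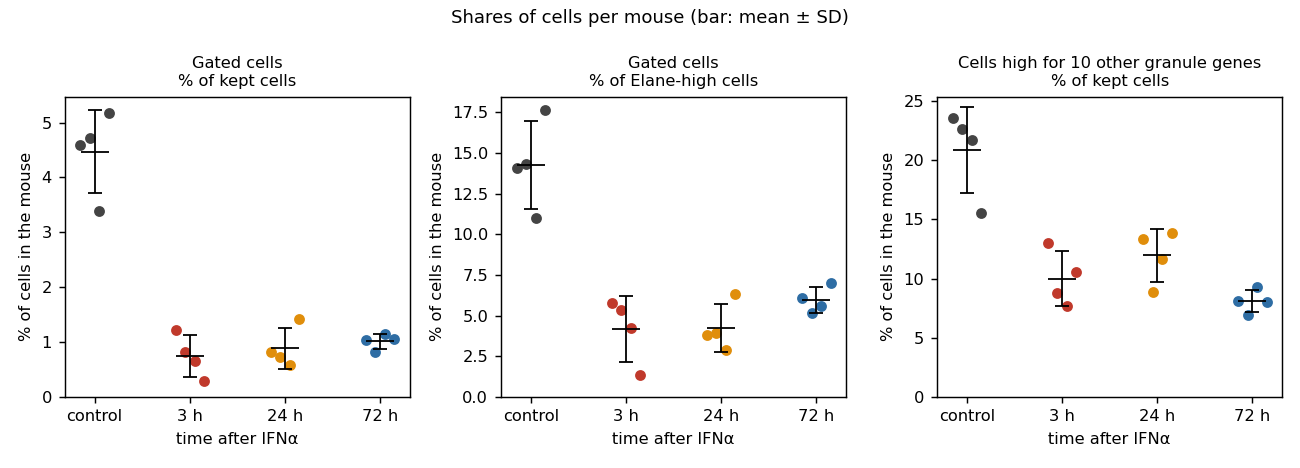
Share of cells per mouse in control and at 3, 24 and 72 h after IFNα, for the gate among kept cells, the gate among Elane-high cells and the cells high for 10 other granule or commitment genes; points are mice, lines mean and SD (n = 4). In each panel all treated mice lie below all control mice, with control means of 4.47%, 14.3% and 20.9%.

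Gene changes were tested in the UMI counts of the gated cells summed per mouse. The sums held 1364581, 1296779, 1023691 and 38907 UMIs in the control mice, 93392, 81843 and 125069 at 3 h, 123399 to 512564 at 24 h and 142216 to 297626 at 72 h. Mouse 4 at 3 h had a single gated cell and was not tested. Of 3429 genes tested with edgeR's quasi-likelihood test, 106 were higher at 3 h (3.09%) and 3 were lower (0.0875%), where a call needed an adjusted p below 0.05 and a log2 fold change beyond 1 in either direction. The gate gene S100a8 was among the 106, with 2634, 11412 and 5245 CPM in the 3 mice at 3 h, although the median of S100a8 plus S100a9 per cell was lower there than in control, and 3 of the 12 cells held 50 or more of both genes together per 10000. Its control mice had 2298, 2070, 3905 and 2082 CPM, and as a gene of the gate it is given as a value only. At 24 h 23 genes were higher (0.671%) and 1 was lower (0.0292%), and at 72 h 17 were higher (0.496%) and 6 lower (0.175%). The median log2 fold change over all tested genes was within 0.01 of 0 at each time. Of the genes called higher, 102 of 106, 23 of 23 and 16 of 17 lay above the control mean in every mouse. Scaling by library size alone moved the median of all genes by -0.157 (log2) at 3 h, and the calls there were then 85 higher and 16 lower. Without control mouse 4, whose sum came from 3 cells, the calls were 107 and 7 at 3 h, 23 and 1 at 24 h, and 17 and 6 at 72 h. Levels below are CPM of the gated cells of a mouse, and fold changes are edgeR's, with their standard error (SE).

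The gated cells carried an ISG response that was largest at 3 h and no longer called at 72 h. Of 65 listed ISGs, 64 were in the files and 29 passed the filter on low counts, and 23 of these 29 were called higher at 3 h, 8 at 24 h and 0 at 72 h. Their median log2 fold change was 2.64, 0.86 and 0.05 at the 3 times, beside a median within 0.01 of 0 for all tested genes. A gene near 0 in control could pass the filter only through the treated mice, so the count and the median are no measure of the whole list. Of the 35 members below the filter, 29 had a higher pooled level at 3 h than in control, without a test. Summed over the list, the level went from 1971 CPM in control to 7149 at 3 h, 3387 at 24 h and 1869 at 72 h. Isg15, a ubiquitin-like modifier at chr4:156199424-156200818 (GRCm38), had 10.99, 9.25, 3.91 and 0 CPM in the control mice and 557, 758 and 776 CPM at 3 h. At 24 h it had 24.1, 60.4, 64.8 and 99.5 CPM, and at 72 h 10.1, 7.03, 4.90 and 17.5 CPM. All mice at 3 h and 24 h lay above all control mice, while the 72 h mice overlapped them. The log2 fold change was 6.49 ± 0.26 at 3 h (SE, edgeR adjusted p = 5.1e-21) and 3.08 ± 0.34 at 24 h (edgeR adjusted p = 1.8e-08), and at 72 h it was 0.28 with an edgeR adjusted p of 0.94.

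The genes with the largest rises were nearly silent in control, so that their ratios are better read from the summed counts. Irf7, the transcription factor that amplifies interferon production, had 3 UMIs in the 105 control cells and 58 in the 11 cells of the 3 tested mice at 3 h, a ratio of levels of 240 with a counting interval of 78.1 to 1196. Its levels at 3 h were 107, 196 and 256 CPM, and at 24 h 14.4, 20.1, 32.4 and 21.5 CPM, against at most 1.54 CPM in a control mouse. The edgeR log2 fold change of Irf7 was 7.56 ± 0.55 at 3 h (adjusted p = 7.4e-13) and 4.30 ± 0.71 at 24 h (adjusted p = 0.0001), and the 25 cells at 72 h held 0 UMIs, for which 3 counts set a limit of 3.68 CPM. Ifit1, which binds foreign RNA caps, went from 5 to 84 UMIs at 3 h, a ratio of 208 (85.8 to 658), with 310, 220 and 296 CPM in the mice. Rsad2, which encodes the antiviral enzyme viperin, went from 4 to 51 UMIs (ratio 158, 58.1 to 602) and had 289, 85.5 and 136 CPM. Usp18, the protease that removes Isg15 and restrains the receptor, went from 5 to 39 UMIs (ratio 96.7, 38.1 to 314). All 3 mice at 3 h were far above every control mouse for these genes. At 24 h Ifit1, Rsad2 and Usp18 had 7, 6 and 8 UMIs, and none of them was called then, with edgeR adjusted p of 0.36, 0.45 and 0.30.

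The level left at 24 h varied between ISGs, and 3 h and 24 h were each compared with control and not with each other. Rtp4, a chaperone of membrane receptors, had 161, 122 and 136 CPM at 3 h and still 96.3, 26.8, 16.2 and 70.2 CPM at 24 h, against 4.40, 3.86, 0.977 and 0 CPM in control (log2 fold change 5.45 ± 0.53 and 4.07 ± 0.46, edgeR adjusted p = 3.7e-10 and 4.5e-08). Ifitm3, which blocks virus entry at membranes and lies at chr7:141009586-141010770 (GRCm38), had 58.6, 73.3, 42.0 and 25.7 CPM in control and 621, 611 and 1015 CPM at 3 h. At 24 h it had 226, 372, 486 and 482 CPM and at 72 h 70.6, 21.1, 83.3 and 23.4 CPM. Both early times were separated from control, and 72 h was not. The log2 fold change of Ifitm3 was 3.86 ± 0.24, 2.81 ± 0.20 and -0.04 ± 0.35 at the 3 times (edgeR adjusted p = 2.2e-15, 9.5e-13 and 0.99). Bst2, the tetherin gene, was likewise called at both times, with log2 fold changes of 2.14 and 1.51 and means of 101, 457 and 325 CPM in control, at 3 h and at 24 h. Trim30a, by contrast, had log2 fold changes of 2.64 at 3 h (edgeR adjusted p = 6.7e-10) and 0.03 at 24 h, Gbp7 of 2.77 and 0.51 and Parp14 of 4.31 and 1.59, each called at 3 h alone. Among the most abundant ISGs, Ifitm2 had 627 CPM ± 21.1 in control and 613 ± 64.3 at 3 h, and Ly6e, a small surface protein, had a log2 fold change of 0.66 at both 3 h and 24 h (edgeR adjusted p = 0.0024 and 0.0001), below the size required for a call.

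Of 15 listed signalling genes 8 were tested, and 4 were called higher at 3 h, 1 at 24 h (Irf7) and 0 at 72 h. Over all tested genes 3.09%, 0.671% and 0.496% were called higher at these times. A gene near 0 in control, such as Irf7, could pass the filter only through the treated mice. The count is thus no measure of the whole list. Of the 7 members below the filter, 4 had a higher and 2 a lower pooled level at 3 h, without a test. Irf9, which gives the complex its DNA contact, had 16.1, 9.25, 10.7 and 0 CPM in control and 53.5, 61.1 and 72.0 CPM at 3 h, without overlap. It had a log2 fold change of 2.505 ± 0.57 at 3 h (edgeR adjusted p = 0.0026), with an adjusted p of 0.077 when mouse 3 of that time was left out. The receptor subunit gene Ifnar2 and the kinase gene Jak1 were not called at any time, with log2 fold changes between -0.39 and -0.02.

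Promoters of 4 of the induced genes are shown because they carry the letters GAAA, any 2 bases and GAAA again, the core of the interferon-stimulated response element, on either strand. Irf7 and Usp18, also among the largest rises at 3 h, are not shown. Each run is 160 bases of RefSeq sequence on GRCm38.p6, 5′ to 3′ on the strand of the gene, from 130 bases before the annotated start to the first 30 bases from it on, with matches in capitals (TTTC, any 2 bases and TTTC is the motif on the other strand, and overlapping matches are merged). They are Ifit1 at chr19:34640759-34640918 (plus strand), Isg15 at chr4:156200789-156200948, Rsad2 at chr12:26456423-26456582 and Ifitm3 at chr7:141010715-141010874 (each minus strand).
Ifit1: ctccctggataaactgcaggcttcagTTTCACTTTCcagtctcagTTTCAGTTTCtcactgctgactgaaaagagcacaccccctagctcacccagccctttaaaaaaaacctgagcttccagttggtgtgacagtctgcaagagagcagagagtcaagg
Isg15: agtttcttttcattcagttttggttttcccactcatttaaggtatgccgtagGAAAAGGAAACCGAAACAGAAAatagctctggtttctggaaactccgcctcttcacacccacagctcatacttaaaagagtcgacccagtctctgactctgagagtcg
Rsad2: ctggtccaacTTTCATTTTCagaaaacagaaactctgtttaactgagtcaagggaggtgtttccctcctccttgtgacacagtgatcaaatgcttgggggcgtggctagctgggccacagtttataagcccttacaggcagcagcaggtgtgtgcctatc
Ifitm3: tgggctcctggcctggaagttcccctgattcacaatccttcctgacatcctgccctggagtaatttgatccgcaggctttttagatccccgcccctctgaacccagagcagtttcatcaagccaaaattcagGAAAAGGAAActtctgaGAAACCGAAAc
Ifit1 holds 2 matches, Isg15 3 overlapping ones in 22 bases, Rsad2 1 and Ifitm3 2, which begin 2 and 19 bases after the annotated start base. Over windows of 250 bases before to 50 bases after the start, the letters occur in 1131 of 32851 RefSeq promoters (3.44%) and in 113 of the 2678 tested genes with a promoter (4.22%). Of the 106 genes called higher at 3 h, 81 had a promoter and 19 of these held a match (23.5%), in 12 of 22 genes from the interferon lists (54.5%) and 7 of 59 others (11.9%). The gate genes Elane, S100a8 and S100a9 held none. A match describes letters in a window and does not show binding.

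Antigen presentation genes gave most of their calls at 24 h. Of 19 listed genes 15 were tested, with 1 called higher at 3 h, 3 at 24 h (Tap1, H2-Q7 and H2-Q4) and 0 at 72 h, and medians of 0.27, 0.46 and 0.23 on the log2 scale. The shares called higher among all tested genes were 3.09%, 0.671% and 0.496%. B2m, the light chain of MHC class I, had 1101, 1026, 1058 and 720 CPM in control and 942, 1136 and 1031 CPM at 3 h. At 24 h it had 1501, 1563, 2066 and 1783 CPM, and at 72 h 1203, 1294, 1058 and 1139 CPM. The 24 h mice were all above every control mouse, whereas the 3 h mice were not. The log2 fold change of B2m at 24 h was 0.78 ± 0.10 (edgeR adjusted p = 6.9e-07), and those of the heavy chain genes H2-K1 and H2-D1 were 0.86 ± 0.11 and 0.79 ± 0.13 (edgeR adjusted p = 8.4e-07 and 8.2e-05), all under the size required for a call. H2-Q7, another class I heavy chain, had 173, 114, 138 and 113 CPM at 24 h against 44.0, 36.2, 42.0 and 0 in control (log2 fold change 1.72 ± 0.20, edgeR adjusted p = 8.5e-08), and 77.3, 56.3, 108 and 40.9 CPM at 72 h (0.91 ± 0.26, edgeR adjusted p = 0.041). H2-K1 was also above control at 72 h by 0.42 (edgeR adjusted p = 0.042). Tap1, the peptide transporter, rose at 3 h already, by 1.53 ± 0.36 (edgeR adjusted p = 0.0035). H2-K1, H2-D1, H2-Q4 and H2-Q7 are near-identical in parts, and reads could be split between them.

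**Figure D3:**
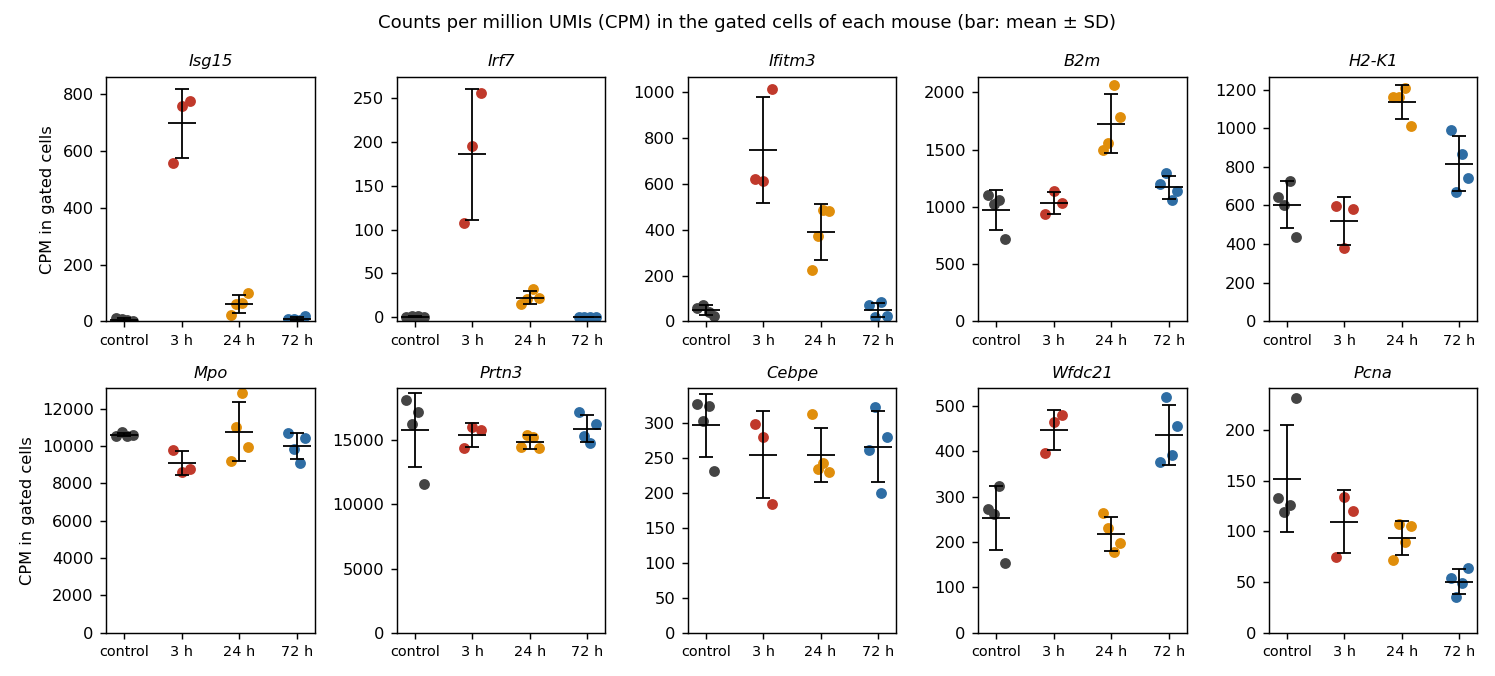
CPM in the gated cells of each mouse for 10 genes, in control and at 3, 24 and 72 h after IFNα; points are mice (4, 3, 4 and 4), lines mean and SD. Isg15, Irf7 and Ifitm3 peaked at 3 h, B2m and H2-K1 stood highest at 24 h, Mpo and Prtn3 moved little, and Pcna was lowest at 72 h.

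Granule genes, the defining products of these cells, were not called at any time. A cell in which they fell together with Elane or with S100a8 and S100a9 would leave the gate, so the gated cells cannot show such a fall. Of 12 primary granule genes 11 were tested, with median log2 fold changes of -0.07, -0.13 and -0.03 at 3, 24 and 72 h, and 3, 2 and 2 of the 11 were above 0. In the early cells the medians were -0.21, -0.17 and -0.33, and those of the secondary granule genes were -0.28, -0.12 and -0.41. Mpo had between 10542 and 10744 CPM in the control mice, 8626 to 9808 at 3 h, 9211 to 12869 at 24 h and 9072 to 10695 at 72 h, with log2 fold changes of -0.07, 0.09 and -0.03 (SE 0.09, 0.08 and 0.08). Prtn3, the proteinase 3 gene, had 11566 to 18080 CPM in control and 14348 to 17199 CPM in all treated mice, and Ctsg, the cathepsin G gene, had means of 6954, 5657, 7211 and 6650 CPM in control and at 3, 24 and 72 h. For the log2 fold changes of Mpo, Prtn3 and Ctsg edgeR gave adjusted p from 0.43 to 0.97. Lyz2, the lysozyme gene, had the largest differences of the list. It had 102, 126, 407 and 129 CPM in control, 53.5, 110 and 80.0 CPM at 3 h, 73.8 to 164 CPM at 24 h and 49.0 to 108 CPM at 72 h, with log2 fold changes of -1.20 ± 0.58, -0.67 and -1.24 ± 0.39 (edgeR adjusted p = 0.32, 0.39 and 0.087). Summed over the 12 genes, the level was 48827 CPM in control and 40917, 43523 and 44912 CPM at the 3 times.

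Of 18 secondary granule genes 8 passed the filter on low counts and none was called, but Wfdc21 passed the adjusted p alone at 3 h and 72 h. It had 272, 261, 324 and 154 CPM in control, 396, 464 and 480 at 3 h, 265, 231, 178 and 199 at 24 h, and 376, 520, 391.9 and 456 at 72 h. The mice at 3 h and 72 h were above every control mouse and those at 24 h were not. The log2 fold changes of Wfdc21 were 0.82 ± 0.17, -0.31 ± 0.14 and 0.65 ± 0.13 (edgeR adjusted p = 0.00083, 0.31 and 0.00096). S100a8, with which Wfdc21 went up across the control gate, had pooled levels of 2658, 5598, 2027 and 2694 CPM in the 4 libraries, and its part in the Wfdc21 change was not tested. Pglyrp1, Hp and Serpinb1a, a protease inhibitor, had log2 fold changes between -0.26 and 0.07 at the 3 times. Of 13 gelatinase granule genes only Slpi was tested, with log2 fold changes of 0.21, 0.06 and -0.28. Among 6 NADPH oxidase genes 5 were tested with none called, but 1 was lower at 3 h by the adjusted p alone (edgeR, under 0.05). The lowest log2 fold change of the 5 at 3 h was -0.98. The medians of the 5 genes were -0.30, -0.11 and -0.12 at the 3 times.

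Among regulators, 12 of 21 transcription factor genes in the files were tested, and Cebpz, whose product binds the CCAAT motif, was called at 72 h. It had 58.6, 75.6, 67.4 and 154 CPM in control and 80.6, 162, 147 and 175 CPM at 72 h, so that the groups overlapped, with a log2 fold change of 1.00 ± 0.22 (edgeR adjusted p = 0.0044). The call was lost when any of 5 mice was left out, through a log2 fold change under 1 or, without mouse 4 at 72 h, an adjusted p of 0.058. Cebpe and Gfi1, which drive neutrophil commitment, had log2 fold changes of -0.21, -0.28 and -0.22 and of 0.09, -0.18 and -0.03, none with an edgeR adjusted p under 0.34. Cebpa had 42.8, 24.4 and 48.0 CPM at 3 h against 80.1 to 154 CPM in control, without overlap, but its change of -1.13 ± 0.37 had an edgeR adjusted p of 0.069. None of 12 tested surface receptors passed, among them Csf3r, Kit and Fcgr3. For Fcgr3, the CD16 gene, the levels were 225, 122 and 168 CPM at 3 h and 257 to 323 CPM in control (edgeR adjusted p = 0.071).

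All 22 tested S phase genes had log2 fold changes below 0 at 72 h, with a median of -0.39 beside 0.01 for all tested genes. At 3 h and 24 h, 9 and 15 of the 22 were above 0. Only Pcna, the sliding clamp of DNA polymerase, was called. It had 133, 119, 126 and 231 CPM in control and 53.8, 35.2, 49.0 and 64.2 CPM at 72 h, with every 72 h mouse below every control mouse (log2 fold change -1.26 ± 0.22, edgeR adjusted p = 0.00017). Slbp, which binds histone mRNA, passed the adjusted p alone (-0.78 ± 0.21, edgeR adjusted p = 0.028). None of 19 tested G2/M genes passed at any time, and their medians were 0.41, -0.46 and 0.34. The same list had medians of -0.51, -0.28 and -0.34 in the early cells, where those of the S phase list were -0.04, -0.13 and -0.14. Among the 17 purine synthesis genes tested, only Nme2, a nucleoside diphosphate kinase, was called, at 72 h. It had 60.1, 53.2, 51.8 and 51.4 CPM in control and 6.72, 7.03, 19.6 and 17.5 CPM at 72 h (log2 fold change -2.09 ± 0.37, edgeR adjusted p = 0.00026). In the early cells Nme2 fell by 1.59 and Pcna by 0.69 on the log2 scale, and Nme2 reads can be split with its near copy Nme1.

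Genes of cell death and survival gave no call. At 3, 24 and 72 h the medians of 6 tested pyroptosis genes were 0.33, 0.15 and 0.02, those of 2 necroptosis genes -0.30, -0.25 and -0.36 and those of 6 genes of the survival list 0.14, -0.17 and -0.08. The survival list mixes pro-apoptotic Bax, its most abundant member in control, with pro-survival Birc5. Its median is thus no measure of survival. Casp1, the inflammatory caspase, had 42.8, 122 and 64.0 CPM at 3 h against 40.3, 42.4, 40.1 and 25.7 in control, above every control mouse, with a log2 fold change of 0.99 ± 0.39 and an edgeR adjusted p of 0.17. Gsdmd, the pore-forming target of Casp1, had log2 fold changes of -0.14, 0.13 and 0.00. Casp4 was below the filter, with 68 UMIs in control (18.3 CPM, 14.2 to 23.1) and 13 at 3 h (39.2 CPM, 20.9 to 67.1, exact Poisson intervals). Birc2, an inhibitor of apoptosis also below the filter, had 28.7 CPM (23.5 to 34.7) in control and 9.05 CPM (1.87 to 26.5) at 3 h, from 107 and 3 UMIs, and Bcl2 had 20.1 and 15.1 CPM. No fold change was tested for these genes.

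**Figure D4:**
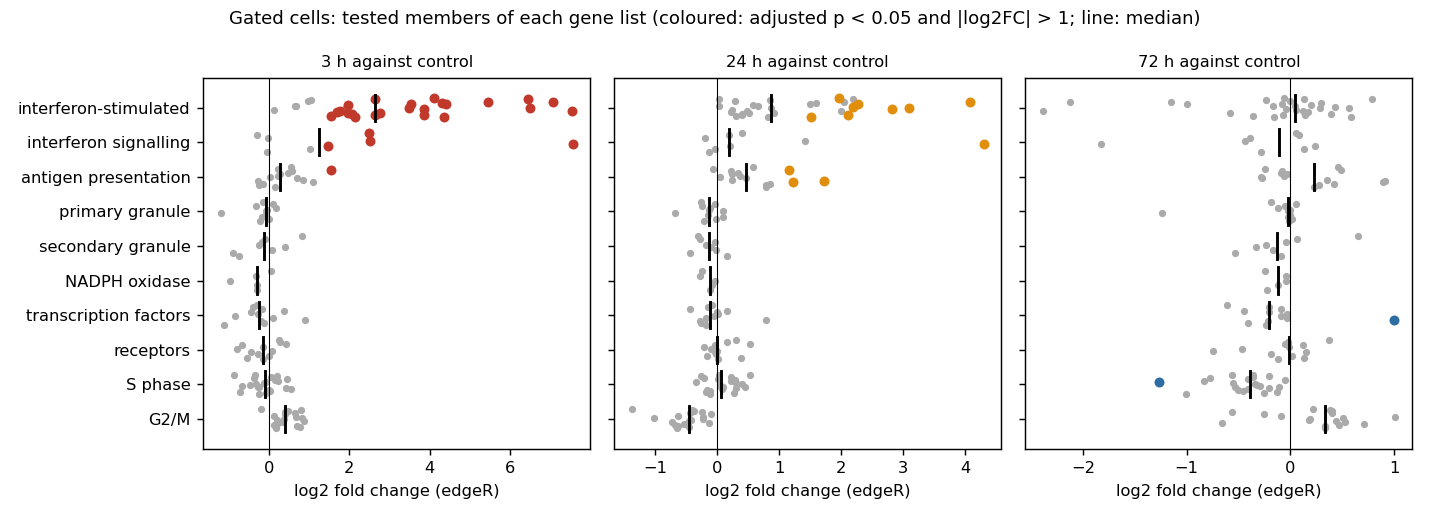
Log2 fold changes (horizontal, edgeR) of the tested members of 10 gene lists in the gated cells at 3, 24 and 72 h against control, each point a gene, coloured where called, with the median as a line; the 3 horizontal scales differ. Interferon-stimulated genes lie to the right at 3 h, with a median of 2.64, and around 0 at 72 h, while no granule gene is coloured and the medians of the primary granule genes lie between -0.13 and -0.03.

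Of the 3 genes lower at 3 h, Gm26917 had a log2 fold change of -1.77 (edgeR adjusted p = 0.017) and Clptm1l of -1.33 (edgeR adjusted p = 0.047), and both calls depended on single mice. Leaving out any mouse at 3 h gave Gm26917 an edgeR adjusted p of 0.066 to 0.095 and Clptm1l one of 0.09 to 0.23. Clptm1l was also lost without control mouse 1 (0.092) or 3 (0.052). Ribosomal protein genes, taken by symbol, gave 11 of the 106 genes higher at 3 h, 1 at 24 h and 3 at 72 h, out of 80 tested. Among all 3429 tested genes 3.09%, 0.671% and 0.496% were called higher at these times. Rpl35 had 556, 601, 629 and 668 CPM in control, 2987, 3323 and 2894 at 3 h, 1343 to 1532 at 24 h and 1951 to 2076 at 72 h, with log2 fold changes of 2.5, 1.33 and 1.80. Each library thus formed a tight band of its own for Rpl35, and the early cells had log2 fold changes of 2.43, 1.25 and 1.91 in the same libraries. Only 5 genes were higher at all 3 times, Rpl35, Lsm7 (an RNA splicing factor), Gstp1, Polr2l (an RNA polymerase subunit) and the predicted gene Gm10076, none of them an ISG, and they were named after their values were seen. Lsm7 had 24.4 to 51.4 CPM in control and 136 to 220 at 3 h, 50.7 to 67.1 at 24 h and 81.8 to 144 at 72 h. Of the genes higher at 24 h, 18 of 23 were also higher at 3 h, as were 12 of the 17 higher at 72 h, and these comparisons share their control mice. The other rises at 72 h were led by Gm8186 (2.53), Gm10020 (2.27) and Rpl27-ps3 (1.97), which are pseudogenes or predicted genes whose reads may come from their parent genes. The falls at 72 h besides Nme2 and Pcna were Rnaset2a (-1.63 ± 0.17, edgeR adjusted p = 3.8e-09), its near copy Rnaset2b (-1.13), Wdr89 (-1.44) and the activation antigen gene Cd69 (-1.61 ± 0.40, edgeR adjusted p = 0.015). The Cd69 call was lost without control mouse 2 (edgeR adjusted p = 0.054) or mouse 1, 3 or 4 at 72 h (0.080, 0.093 and 0.079). Rnaset2a and Wdr89 fell in the early cells too, by 1.53 and 1.35 on the log2 scale, and Cd69 had a change of -0.44 there (edgeR adjusted p = 0.086). Of the genes called higher in gated cells, 86 of 106, 18 of 23 and 14 of 17 were also called in the early cells of the same mice, where 334, 98 and 63 of 9950 tested genes were called higher. Of the genes called lower, 0 of 3, 0 of 1 and 4 of 6 were also called there, where 95, 30 and 40 of 9950 were called lower.

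Whether a change differed between gated and early cells was tested by the interaction of cell group and time, with the mouse as a block, in 8816 genes. At an adjusted p under 0.05, 10 genes differed at 3 h (0.113%), 1 at 24 h (0.0113%) and 4 at 72 h (0.0454%), but the count for 3 h includes S100a8, which divided the cells and is not a finding. Ifitm3 changed more in the gated cells at both early times. In the early cells it had 341, 351, 380 and 382 CPM in control, 1586, 1738 and 1746 CPM at 3 h and 1096 to 1182 CPM at 24 h. The gated cells started from a control mean of 49.9 CPM and reached 749 and 391.6 CPM, so they stayed below the early cells throughout while changing more on the log2 scale. The difference of the log2 fold changes of Ifitm3 was 1.33 ± 0.20 at 3 h (edgeR adjusted p = 6.3e-06) and 1.06 ± 0.18 at 24 h (edgeR adjusted p = 0.00022). It was 0.96 with an adjusted p of 0.072 without mouse 3 at 3 h, and 0.86 with an adjusted p of 0.091 without mouse 4 at 24 h. Against early cells with Elane at 100 or more, it was 1.23 (edgeR adjusted p = 0.00072) and 0.89 (edgeR adjusted p = 0.037). Ifi203, a DNA sensor of the PYHIN family, had a difference of 1.84 ± 0.40 at 3 h (edgeR adjusted p = 0.012), from 3.57 to 191 CPM in gated and from 45.4 to 464 CPM in early cells, and of 1.82 with an adjusted p of 0.064 against the Elane-rich early cells.

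AY036118 and Nusap1, chosen after their values were seen, had positive differences at 3 h too, of 1.504 and 2.63 (edgeR adjusted p = 0.013 and 0.022). For AY036118 mouse 1 at 3 h had 728 CPM and the other mice 85.5 and 32.0. Pim1, Myc, Cxcl10, Tax1bp1 and Anxa1 (-1.02, edgeR adjusted p = 0.026) had differences of the opposite sign. Against the Elane-rich early cells the difference was 2.39 for AY036118, 2.63 for Nusap1 and -1.18 for Anxa1 (edgeR adjusted p = 0.00072, 0.25 and 0.064). Pim1, a kinase gene induced by cytokine receptors, had 299, 357 and 369 CPM in the early cells at 3 h against 66.5 to 115 CPM in control, whereas the gated cells had 75.0, 73.3 and 48.0 CPM at 3 h and 44.7, 60.9, 41.0 and 129 CPM in control (difference -1.86 ± 0.36, edgeR adjusted p = 0.0025). Myc had means of 166 and 262 CPM in early cells and 114 and 83.6 CPM in gated cells, in control and at 3 h (-1.39 ± 0.30, edgeR adjusted p = 0.012). Cxcl10, the interferon-induced chemokine, had 197, 219 and 109 CPM at 3 h in early cells and 3 UMIs in all in the gated cells of the mice tested, one in each (-5.25 ± 1.09, edgeR adjusted p = 0.0082). The single gated cell of mouse 4 at 3 h, which was not tested, held 8 Cxcl10 UMIs or 257 CPM, and the Elane-rich early cells ranged from 11.7 to 159 CPM at 3 h, so that the low Cxcl10 of the gated cells rests on the mice tested. Tax1bp1, an autophagy receptor, was at 354 and 244 CPM in gated cells and 310 and 348 CPM in early cells (-0.95 ± 0.20, edgeR adjusted p = 0.012). These rest on 19 Pim1, 25 Myc and 74 Tax1bp1 UMIs at 3 h. Against the Elane-rich early cells the differences of Pim1 and Myc shrank to -1.21 and -0.87 with edgeR adjusted p of 0.75 and 0.92, while that of Tax1bp1 was -0.94 (edgeR adjusted p = 0.047), and Cxcl10 was not tested there. Leaving out mouse 3 at 3 h gave Pim1 and Myc an adjusted p of 0.072 each, and leaving out mouse 2 gave Myc 0.35 and Tax1bp1 0.28. For Cxcl10 the adjusted p was 0.38 without control mouse 3, and the call of Tax1bp1 was also lost without control mouse 2 (0.062), as was that of Myc (0.066).

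**Figure D5:**
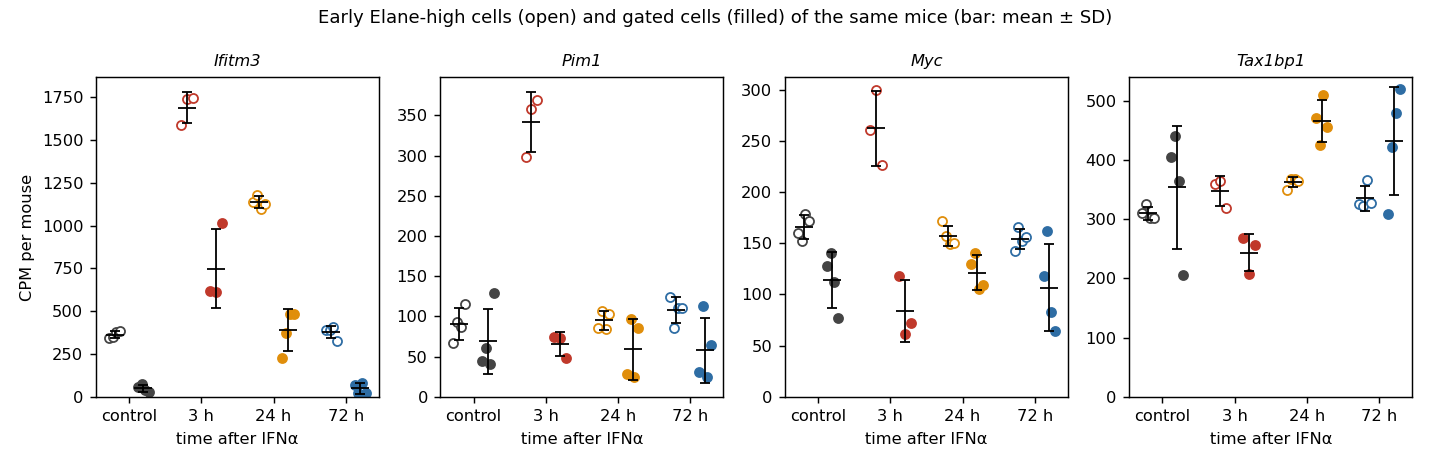
CPM of 4 genes in early Elane-high cells (open points) and gated cells (filled points) of the same mice, in control and at 3, 24 and 72 h after IFNα, with mean and SD (n = 4, 3, 4 and 4). Ifitm3 rose from a lower start in gated cells, and Pim1 and Myc at 3 h stood above control in the early cells alone.

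At 72 h the genes that differed were Wfdc21, Birc5, Ube2c and Ccdc163, each higher in gated cells relative to the early cells. The difference was 1.09 ± 0.23 for Wfdc21 (edgeR adjusted p = 0.012), whose early cells had means of 14.5 CPM in control and 11.3 at 72 h, and 1.03 ± 0.21 for Birc5 (edgeR adjusted p = 0.0063), which encodes the mitotic protein survivin. The values for Ube2c (1.53) and Ccdc163 (3.07) came from single mice. Mouse 1 had 205 CPM of Ube2c, without which the difference was 0.05, and mouse 4 had 163.5 CPM of Ccdc163, without which it was 1.14 with an adjusted p of 1. Against the Elane-rich early cells none of the 4 passed, with edgeR adjusted p from 0.16 to 1. The differences there were 1.06 for Birc5, 2.88 for Ccdc163, 1.35 for Ube2c and 0.62 for Wfdc21. Wfdc21 and Birc5 also lost their calls when single mice were left out, with an adjusted p of up to 0.98 without control mouse 2 and of up to 0.47 without mouse 1 at 72 h.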

How the data were processed

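UMI counts per gene and cell barcode were deposited by the authors without normalization, with a hashtag call for each barcode. A hashtag margin score that the authors deposited beside the calls, the gap between the top normalized hashtag values, was not used. Per the study's methods and the submitters' processing notes, reads were aligned to mm10 and counted with Cell Ranger 3.1.0, and Seurat is named too. The gene annotation is not given in the sources used here. Barcodes with 1 hashtag, at least 700 genes and at most 5% mitochondrial UMIs were kept. Multiplets of 2 mice were thereby removed, doublets within a mouse were not. Counts of gated cells were summed per mouse (at least 3 cells) and tested in R 4.3.3 with edgeR 4.0.16, which draws on limma 3.58.1 (filterByExpr, TMM, quasi-likelihood F test, all time points in 1 fit, Benjamini-Hochberg adjustment over all tested genes). The interaction fit used gated and early sums of the same mice. CPM was computed from the deposited counts without TMM factors. Shares were compared by exact permutation of mice in Python 3.11.15 with NumPy 2.4.6, SciPy 1.17.1 and pandas 2.3.3, and plots used matplotlib 3.10.9. Sequences and gene starts came from RefSeq on GRCm38.p6, and gene positions from a GRCm38 annotation.

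Alternatives were edgeR's likelihood ratio test, DESeq2 1.42.0, library size only, no filter on low counts, gates at 2.5 and 10 per 10000, 3 UMIs of each gate gene, at least 10 cells per mouse, cells thinned to 5000 UMIs, a hashtag block and each mouse left out. The denominator and comparator of cells with Elane at 100 or more were added after seeing the data. Named genes were, per time, the 5 largest rises and falls that passed with the same side in every mouse, per list the 3 most abundant in control and the 3 of lowest p, for the interaction the 5 of lowest p, and genes named by the study for myeloid progenitors; Bst2, Trim30a, Gbp7, Parp14, Tap1, H2-Q4, Ifi203, Rpl35, Gstp1, Polr2l, Rnaset2b, Gfi1, Vcam1, Clec4a2 and Cd34 were picked with their values in view. The members and lists were chosen with earlier results of these data known. Hashtag numbers mark mice within a library, and the labels do not say whether a number marks anything shared between libraries. Counts with 200 changed genes were simulated with the same spread for every gene. Recovery there meant an adjusted p under 0.05 alone, without the size required for a call. The 3 h comparison (3279 genes) recovered 72.4% of tested 2-fold and 100% of 4-fold changes. The 24 h (3307 genes) and 72 h (3427 genes) comparisons recovered 94.8% and 100%. By the same rule 11, 15 and 9 unchanged genes passed at 3, 24 and 72 h. The 2-fold genes had median log2 fold changes of 0.981, 0.98 and 0.998, so fewer of them would count as calls. Some genes are not reported here.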

Additional observations from a re-analysis of the deposited data

Results flagged for a closer look

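In 9 of 72 groups of 4 mice examined for the named genes, a single mouse lay far from the other 3, where chance flags about 1 in 20 groups. Control mouse 4, whose gated cells were 3 with 38907 UMIs in all, so that 1 UMI equals 25.7 CPM, gave 6 of these, 5 of which are given here. It had 25.7 CPM of Cd69, 51.4 of Gm10076, 51.4 of Lsm7, 231 of Pcna and 0.0 of Rpl27-ps3. The others were 85.8 CPM of Cd69 in mouse 4 at 24 h, and 7.03 CPM of Rtp4 and 14.1 CPM of Usp18 in mouse 2 at 72 h.

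The change after IFNα had an adjusted p under 0.05 for a difference between gated and early cells, by the interaction test in edgeR, in the genes of lowest p at each time. At 3 h the difference of the log2 fold changes was 1.33 for Ifitm3, -1.86 for Pim1, -5.25 for Cxcl10, -0.95 for Tax1bp1 and -1.39 for Myc. At 24 h it was 1.06 for Ifitm3, and at 72 h 3.07 for Ccdc163, 1.53 for Ube2c, 1.03 for Birc5 and 1.09 for Wfdc21. Each of these lost its call when at least 1 single mouse was left out, and the difference was then 0.05 for Ube2c and 1.14 for Ccdc163, both with an adjusted p of 1. Against early cells with Elane at 100 or more none of the 4 genes at 72 h passed. The differences there were 2.88 for Ccdc163, 1.35 for Ube2c, 1.06 for Birc5 and 0.62 for Wfdc21.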

How the results depend on the processing

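The calls at 3 h rest on 11 cells of 3 mice, so that 2-fold changes were partly out of reach and a gene without a call is not shown to be unchanged. Of 44 named gene results all kept their direction under the alternatives run, and 19 lost a call under at least 1 of them. Counts of higher genes stayed within 1.5 times of the reported ones. Genes lower at 3 h (3 reported) were 11 with the likelihood ratio test, 1 with DESeq2, 16 with library size only, 21 without a filter, 5 with thresholds at 2.5 and 5 with 3 UMIs of each gate gene. Genes lower at 24 h (1 reported) were 2, 0, 8 without a filter, 9 with at least 10 cells per mouse (where 24 h is 1 mouse), 2 and 4 with thresholds at 10 and 2.5 and 0 with the hashtag block, where the first 2 values are the likelihood ratio test and DESeq2. Genes lower at 72 h (6 reported) were 13 without a filter and 11 with thresholds at 10. Interaction genes (10, 1 and 4) were 16, 3 and 7 without a filter and 3, 2 and 0 against early cells with Elane at 100 or more. With that denominator the gate's share differed by -16.6, -18.6 and -12.7 points at the 3 times, but control and treated mice overlapped at 3 h and 72 h. Control mouse 4 entered there with 3 of 6 cells (50.0%), beside 29.7%, 28.6% and 22.6% in control mice 1 to 3. Without it these differences would be smaller. With both thresholds at 10 the gate's share of kept cells differed by -2.29, -2.25 and -2.03 points (reported -3.73, -3.58 and -3.46).

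With 1 mouse left out, genes higher ranged from 95 to 107 at 3 h, 18 to 23 at 24 h and 13 to 17 at 72 h, genes lower from 4 to 8, 0 to 4 and 5 to 7, and interaction genes from 6 to 15, 0 to 6 and 2 to 9. The share of cells high for other granule genes differed by -12.7 to -9.96 points at 3 h, -10.7 to -7.88 at 24 h and -14.5 to -11.8 at 72 h, with exact p of up to 0.0571. The gate's share of kept cells differed by -4.08 to -3.49, -3.94 to -3.35 and -3.82 to -3.22 points, and its share of Elane-high cells by -11.2 to -8.97, -11.1 to -8.92 and -9.42 to -7.22.

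The deviations of same-numbered mice had correlations of -0.0727 to 0.0891 over 21 pairs, against -0.0994 to 0.0891 for different numbers. Some of these sums came from as few as 3 cells, so low correlations cannot show whether same-numbered mice share more than a hashtag number. With that number as a replicate block, 106 genes were higher and 4 lower at 3 h, 20 and 0 at 24 h and 18 and 7 at 72 h. At least 10 cells per mouse could be fitted at 24 h only, with 25 genes higher, and there the time point is mouse 4 alone, assumed to vary like the control mice, so these counts say nothing about stability.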
